A study of Mus musculus with 8 samples.

Results

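The 8 genes described here mark retinal ganglion cells, the projection neurons whose axons form the optic nerve. They were chosen by symbol, as structural and identity genes of mature ganglion cells, from the 23284 genes of the deposited count tables. They are the neurofilament genes Nefl, Nefm and Nefh, the surface protein gene Thy1, the synuclein gene Sncg, the RNA-binding protein genes Rbpms and Rbpms2, and the vesicular glutamate transporter gene Slc17a6. All 8 were present and all 8 passed the filter on low counts.

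RNA was sequenced from microdissected peripheral retina of mice at postnatal day 12, with 4 libraries in each of 2 groups. In the group labelled Rb null, TET-MYCN (the TET-MYCN libraries), the series text gives Pax6 alpha enhancer Cre with a lox-stop-lox RTTA transactivator at Rosa26 and a TRE-MYCN transgene. In the group labelled Rb null (the Rb-null libraries), it gives Pax6 alpha enhancer Cre with floxed Rb alleles. The series title and the genotype labels give loss of Rb in both groups, whereas the design text does not repeat the floxed Rb allele for TET-MYCN. The alpha enhancer of Pax6 drives Cre in the peripheral retina, so cells without recombination may remain in the tissue. No doxycycline treatment, sex, batch or pooling is stated in the labels used here. Since the labels do not say that each library came from its own animal, the p-values given here compare libraries, and part of that spread may be technical.

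Neurofilaments are heteropolymers of a light, a medium and a heavy subunit and fill large axons. In rodents the light and medium subunits are made early in neuronal differentiation, and the heavy subunit comes later, as axons mature and thicken. Ganglion cells are the retinal neurons richest in neurofilament, and mouse horizontal cells also make it. Ganglion cells arise first among retinal neurons, and loss of Rb in the mouse retina is known to cost ganglion, bipolar and photoreceptor cells. In bulk tissue, fewer ganglion cells and less RNA of these genes per cell cannot be told apart.

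Of the RefSeq promoter table (GRCm38.p6), 3 of the 8 genes had entries, namely Slc17a6, Sncg and Rbpms2. The 250 bases before each of the 2 starts of Slc17a6 are shown because only one of these windows held a match to a motif of ganglion cell transcription factors. Capitals mark ATTAAT, the AT-rich core to which POU4F factors such as Pou4f1 and Pou4f2 bind. The window before the first start is chr7:51621580-51621829 and that before the second is chr7:51624387-51624636, both on the plus strand.
Slc17a6 first start: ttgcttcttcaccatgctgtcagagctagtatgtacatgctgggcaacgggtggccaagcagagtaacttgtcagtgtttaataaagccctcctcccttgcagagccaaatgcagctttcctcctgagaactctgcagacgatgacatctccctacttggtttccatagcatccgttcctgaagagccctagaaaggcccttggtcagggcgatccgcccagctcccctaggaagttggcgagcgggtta
Slc17a6 second start: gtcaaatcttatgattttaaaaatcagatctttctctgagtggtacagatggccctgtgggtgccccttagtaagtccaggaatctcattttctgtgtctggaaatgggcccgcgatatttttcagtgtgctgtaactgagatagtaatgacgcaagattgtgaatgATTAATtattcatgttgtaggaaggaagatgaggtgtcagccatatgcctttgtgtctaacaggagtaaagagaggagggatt
ATTAAT reads the same on both strands and occurred in 4.39% of the 32851 promoter windows of this length. CACGTG, the E-box of MYC and MAX proteins, is also its own reverse complement. It occurred in 6.02% of those windows and in 0 of the 4 windows of these genes. The 2 motifs share no overlapping match in the windows shown. The counts are per gene and cannot tell which start was used.

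Depth was 14872131 to 22873979 gene counts per library. The 8 genes had from 136 counts (Rbpms2, TET-MYCN 1) to 3517 counts (Nefl, Rb-null 3). At this depth the counting error of a gene's level is small beside its spread between libraries. Levels are given in CPM, the counts of a gene per 1000000 gene counts of its library, scaled with TMM factors. Mycn had 242 ± 37.6 CPM in TET-MYCN and 231 ± 94.96 CPM in Rb-null, and Rb1 had 154 ± 23.6 CPM in TET-MYCN and 161 ± 21.9 CPM in Rb-null (SD, n = 4 each). Neither gene separates the groups, the labels do not say whether reads of the MYCN transgene or of a recombined Rb1 allele would be told apart by these counts, and the direction of every comparison therefore rests on the labels. Markers of rods, cones, bipolar, amacrine, horizontal and glial cells were detected in every library. Such markers occur in any retina, so their presence cannot tell peripheral from central retina. Lens markers summed to 12.1 to 50.04 CPM in TET-MYCN and 22.1 to 492 CPM in Rb-null. The highest sums were 257 and 492 CPM, in Rb-null 2 and 3. TET-MYCN 3 stood farthest from its group over all genes, with r of 0.958 to 0.969 with the other 3 TET-MYCN libraries on log2 CPM. The other pairs of a group had r of 0.971 to 0.988, and no pair of libraries agreed within sampling noise.

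Of the 8 ganglion cell genes, 7 had a lower fitted level in TET-MYCN than in Rb-null, where 47.8% of all genes did, and Nefm alone went the other way. Their median log2 fold change was -0.52, beside 0.01 over all 15106 genes tested. None of the 8 passed an adjusted p of 0.05 (0 of 8 by edgeR's quasi-likelihood test, where 0.0596% of all genes passed and 0.00662% passed as lower). At an unadjusted p under 0.05, 3 of the 8 were lower (Nefh, Rbpms2 and Sncg) and 0 higher, where 7.72% of all genes were lower and 8.06% higher. Groups of 4 did not overlap for 1 of the 8, Nefh, where 7.65% of all genes did not overlap and 3.29% did so as lower in TET-MYCN. DESeq2 called 1 of the 8, Nefh, where it called 3.51% of all genes, 1.37% as lower. At an unadjusted p under 0.05, DESeq2 had 5 of the 8 lower, where 8.67% of all genes were. Limma-voom called 0 of the 8, with 3 lower at an unadjusted p under 0.05, where 7.55% of all genes were.

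**Figure D1:**
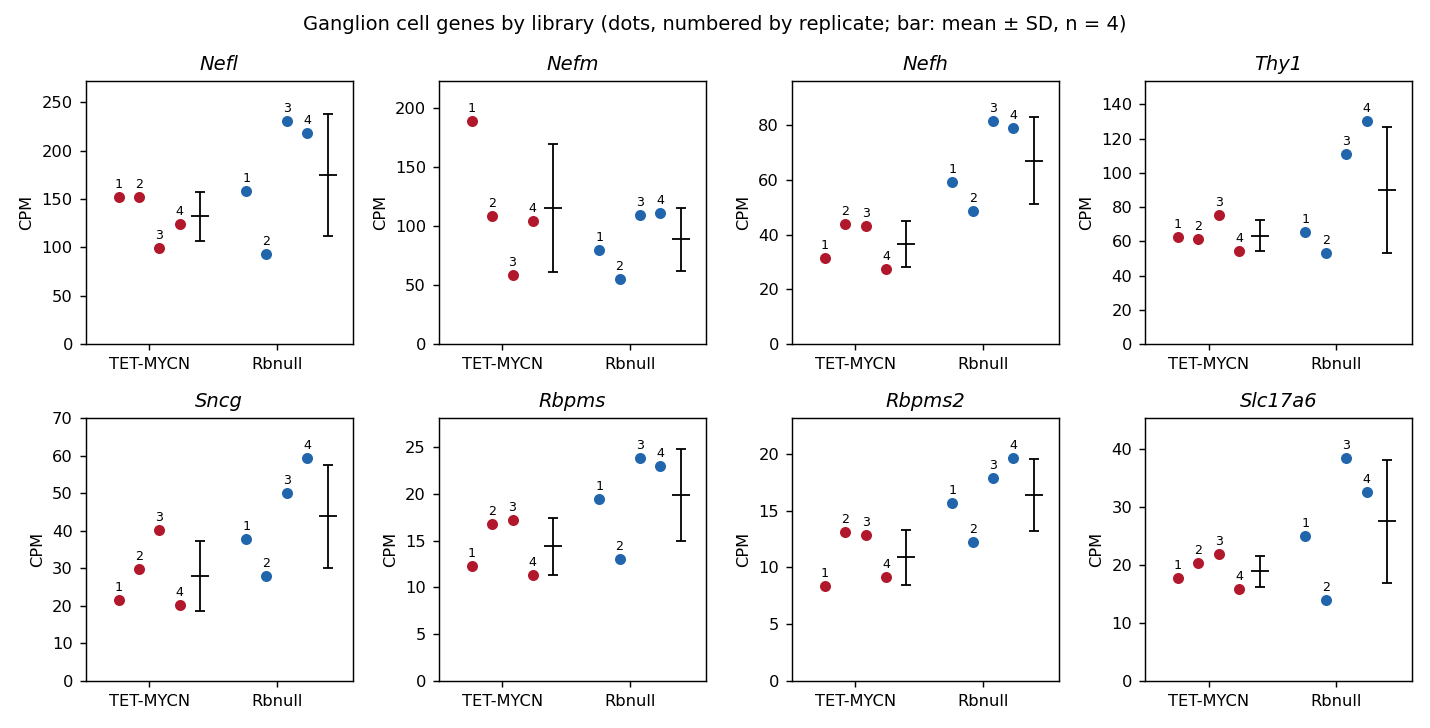
Level of each gene in CPM (vertical axes from 0, scales differ) in the 4 TET-MYCN libraries (left, red) and the 4 Rb-null libraries (right, blue), numbered by replicate, with mean and SD. Nefh is the gene whose groups do not overlap, at 27.4 to 44.0 CPM in TET-MYCN and 48.4 to 81.3 CPM in Rb-null, while Nefm is highest in TET-MYCN 1.

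Among the neurofilament genes, the heavy subunit stood out. Nefh, whose long tail forms the side arms of the filament, had 31.6, 44.0, 43.2 and 27.4 CPM in TET-MYCN 1 to 4, against 59.3, 48.4, 81.3 and 78.7 CPM in Rb-null 1 to 4. Every TET-MYCN library lay below every Rb-null library, and the closest pair was TET-MYCN 2 and Rb-null 2. The means were 36.6 ± 8.31 CPM in TET-MYCN and 67.0 ± 15.8 CPM in Rb-null (SD, n = 4 each), a log2 fold change of -0.87 ± 0.20 (SE; edgeR adjusted p = 0.158). Its unadjusted p was among the smallest 1.05% of all genes tested. DESeq2 gave the same size of difference with a smaller p, at a log2 fold change of -0.88 ± 0.22 (adjusted p = 0.00646). With any 1 library left out the log2 fold change stayed between -0.999 and -0.76, and Nefh had the most negative value of the 8 genes in every fit run.

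Nefl, the light subunit on which the filament core is built, had 152.2, 152.0, 99.3 and 124.5 CPM in TET-MYCN 1 to 4, against 158, 93.6, 230.5 and 219 CPM in Rb-null 1 to 4. The TET-MYCN libraries all lay within the Rb-null range, which was set by a low Rb-null 2 and high Rb-null 3 and 4. The log2 fold change was -0.41 ± 0.26 (edgeR adjusted p = 0.474), with a 95% interval of -0.99 to 0.17.

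Nefm, the medium subunit, had 189, 109, 58.5 and 104 CPM in TET-MYCN 1 to 4, against 79.8, 55.1, 109.8 and 111 CPM in Rb-null 1 to 4. TET-MYCN 1 was the highest of all 8 libraries, and the other 3 TET-MYCN libraries lay within the Rb-null range. The means were 115 ± 54.3 CPM in TET-MYCN and 89.0 ± 26.8 CPM in Rb-null, a log2 fold change of 0.37 ± 0.33 (edgeR adjusted p = 0.626). Without TET-MYCN 1 the value was 0.02 ± 0.28.

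Within a library, the proportions of the subunits can be read without any scaling between libraries. The ratio of Nefh to Nefm counts was 0.167, 0.404, 0.739 and 0.263 in TET-MYCN 1 to 4, against 0.743, 0.879, 0.740 and 0.708 in Rb-null 1 to 4. The Rb-null libraries lay close together, 3 TET-MYCN libraries lay well below them, and TET-MYCN 3 fell among them. The mean log2 ratio was lower in TET-MYCN by a difference of -1.18, or 0.443-fold (p = 0.0571 and adjusted p = 0.0857 over the 3 subunit ratios, two-sided exact permutation test over all 70 arrangements). The smallest p this design allows is 0.0286.

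The ratio of Nefm to Nefl counts was 1.24, 0.716, 0.589 and 0.837 in TET-MYCN 1 to 4, against 0.505, 0.589, 0.476 and 0.509 in Rb-null 1 to 4. Again the Rb-null libraries were close to each other, and TET-MYCN 3 and Rb-null 2 were level. The mean log2 ratio differed by 0.65, or 1.57-fold (p = 0.0571, adjusted p = 0.0857, exact permutation test). The ratio of Nefh to Nefl counts was 0.207, 0.289, 0.435 and 0.221 in TET-MYCN 1 to 4, against 0.375, 0.517, 0.353 and 0.360 in Rb-null 1 to 4. The mean log2 ratio differed by -0.52 (p = 0.114, adjusted p = 0.114, exact permutation test). TET-MYCN 3 was the only TET-MYCN library within the Rb-null range for these ratios. Without it the differences were -1.55 for Nefh to Nefm, 0.81 for Nefm to Nefl and -0.74 for Nefh to Nefl. Leaving out the library that overlapped separates the groups by that choice. The adjusted p of 0.0286 for each ratio (exact permutation test), the smallest possible, was therefore fixed in advance and gives no support.

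**Figure D2:**
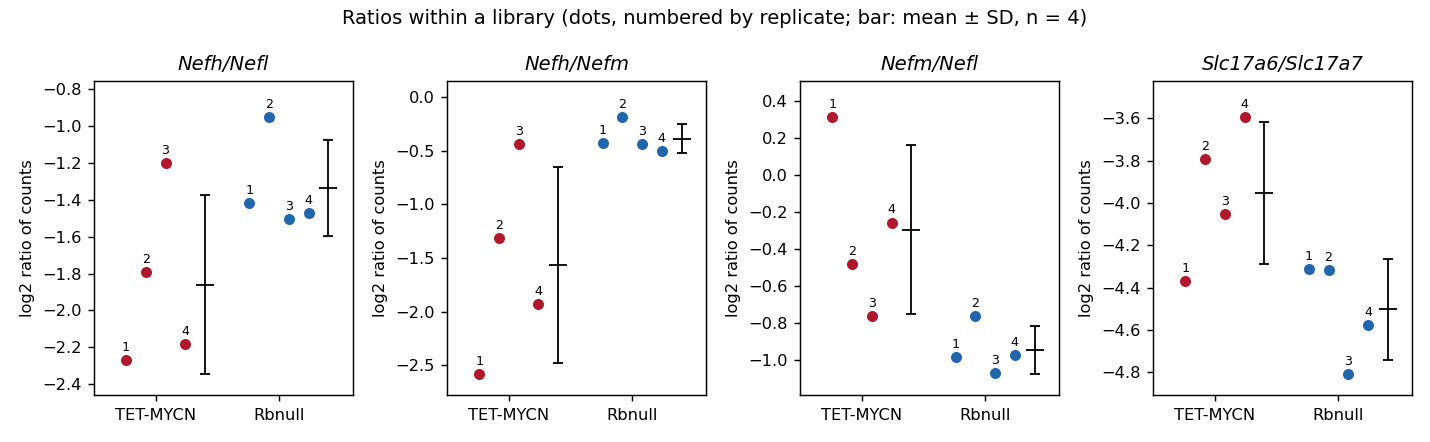
Log2 ratio of counts within each library for the 3 pairs of neurofilament subunits and for Slc17a6 to Slc17a7, TET-MYCN left and Rb-null right, numbered by replicate, with mean and SD (n = 4 each). Nefh to Nefm averages -1.56 in TET-MYCN and -0.39 in Rb-null, and TET-MYCN 3 lies at the Rb-null level in the panels of Nefh to Nefm and Nefm to Nefl.

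Horizontal cell markers shared the highest and the lowest TET-MYCN library with Nefm, and their part in the Nefm values was not tested. The 8 markers listed summed to 1521, 760.1, 537 and 1025 CPM in TET-MYCN 1 to 4, against 618, 676, 697 and 572 CPM in Rb-null 1 to 4. Tpm3 alone gave 848, 310, 249 and 542 CPM of these sums in TET-MYCN 1 to 4, and 209.5, 247, 198 and 186 CPM in Rb-null 1 to 4. Like Nefm, the sums were highest in TET-MYCN 1 and lower in TET-MYCN 3 than in any other TET-MYCN library. Calb1 and Prox1, markers of the same list named outside the rule, had log2 fold changes of -0.15 ± 0.22 and 0.01 ± 0.32. TET-MYCN 2 and 4 stood in the other order for Nefm, and among the Rb-null libraries the sum was lowest in Rb-null 4, where Nefm was highest. Of these 8 markers 6 had a positive log2 fold change, 0 passed edgeR's test, 3 were higher and 1 lower at an unadjusted p under 0.05, DESeq2 called Tpm3, and their median was 1.04, which was 0.55 without TET-MYCN 1. Over all genes 8.06% were higher and 7.72% lower at that unadjusted p, and DESeq2 called 3.51%. None of the 8 markers was at 0 counts in any library. The 3 with the smallest unadjusted p were Tpm3 at 1.21 ± 0.33, Onecut2 at 1.51 ± 0.46 and Sept4 at -0.35 ± 0.12, where Onecut2 is a transcription factor of horizontal cells that ganglion cells also use. Lhx1, the transcription factor that sets the position of horizontal cells, is named here as a defining marker after its values were seen. It had 69.0, 30.4, 8.21 and 40.8 CPM in TET-MYCN 1 to 4, against 16.8, 22.1, 18.6 and 10.1 CPM in Rb-null 1 to 4.

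**Figure D3:**
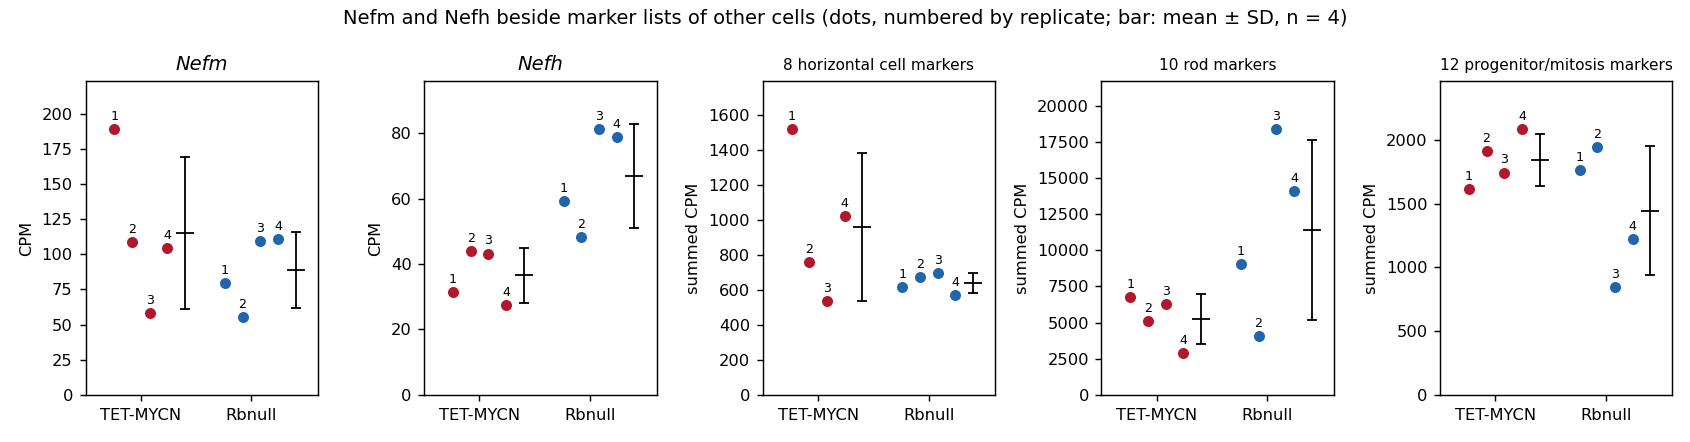
Nefm and Nefh in CPM beside the summed CPM of markers of horizontal cells, of rods and of progenitors and mitosis, TET-MYCN left and Rb-null right, numbered by replicate, with mean and SD (n = 4 each, vertical axes from 0). Nefm and the horizontal cell markers are both highest in TET-MYCN 1, and Nefh and the rod markers are both highest in Rb-null 3 and 4.

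The 5 identity genes were alike in which libraries were high and low. Rbpms, an RNA-binding protein used as a marker of all ganglion cells, had 12.3, 16.8, 17.3 and 11.3 CPM in TET-MYCN 1 to 4, against 19.5, 13.1, 23.9 and 23.02 CPM in Rb-null 1 to 4. TET-MYCN 1 and 4 lay below the whole Rb-null range, and TET-MYCN 2 and 3 lay above its lowest library, Rb-null 2. The log2 fold change was -0.46 ± 0.22 (edgeR adjusted p = 0.334).

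Rbpms2, its close paralog, had 8.40, 13.2, 12.8 and 9.17 CPM in TET-MYCN 1 to 4, against 15.7, 12.3, 17.9 and 19.7 CPM in Rb-null 1 to 4. Only Rb-null 2 reached down into the TET-MYCN range. The means were 10.9 ± 2.45 CPM in TET-MYCN and 16.4 ± 3.18 CPM in Rb-null, a log2 fold change of -0.59 ± 0.20 (edgeR adjusted p = 0.226).

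Sncg, which codes for gamma-synuclein of ganglion cell bodies and axons, had 21.5, 29.9, 40.4 and 20.2 CPM in TET-MYCN 1 to 4, against 37.9, 27.9, 50.1 and 59.5 CPM in Rb-null 1 to 4. TET-MYCN 3 was the highest of its group and lay above Rb-null 1 and 2. The log2 fold change was -0.65 ± 0.27 (edgeR adjusted p = 0.292).

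Thy1, a GPI-anchored surface protein long used to isolate ganglion cells, had 62.4, 61.4, 75.5 and 54.3 CPM in TET-MYCN 1 to 4, against 65.4, 53.5, 111 and 130.2 CPM in Rb-null 1 to 4. TET-MYCN 1, 2 and 4 lay between Rb-null 2 and Rb-null 1, TET-MYCN 3 lay above both, and only Rb-null 3 and 4 were clearly higher. The log2 fold change was -0.50 ± 0.26 (edgeR adjusted p = 0.372). It was -0.28 without Rb-null 4 and -0.69 without Rb-null 2.

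Slc17a6, which codes for VGLUT2, the transporter that loads glutamate into ganglion cell vesicles, had 17.7, 20.4, 21.9 and 15.9 CPM in TET-MYCN 1 to 4, against 25.0, 14.03, 38.5 and 32.6 CPM in Rb-null 1 to 4. As for Thy1, the TET-MYCN libraries were alike and the Rb-null libraries were spread widely, from the lowest of all 8 to the highest. The log2 fold change was -0.54 ± 0.27 (edgeR adjusted p = 0.356).

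**Figure D4:**
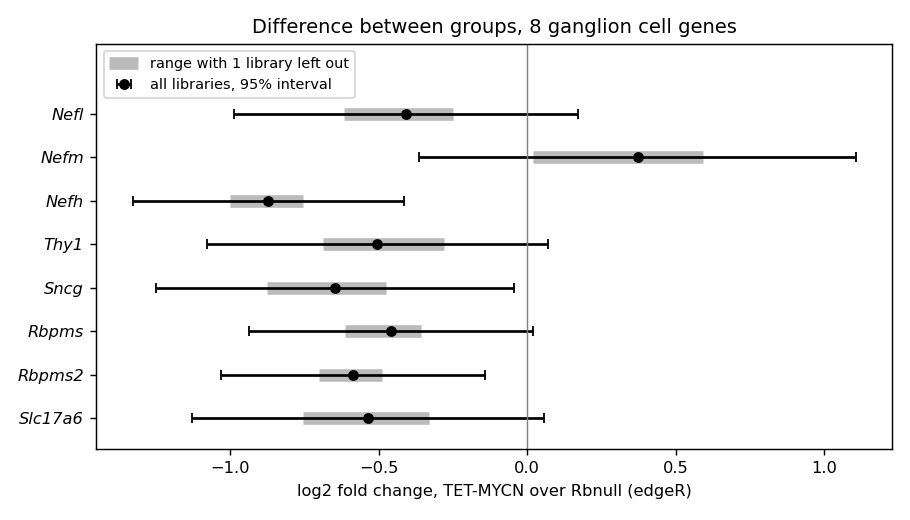
Log2 fold change of each gene, TET-MYCN over Rb-null, from edgeR (points), with its 95% interval (bars) and the range when 1 library is left out (grey). Nefh, at -0.87 with an interval of -1.33 to -0.42, lies farthest from 0, and Nefm alone is above 0.

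Across the 8 libraries, 6 of the genes formed a tight group. For the 15 pairs among Nefh, Thy1, Sncg, Rbpms, Rbpms2 and Slc17a6, Pearson's r of log2 CPM over 8 libraries ranged from 0.783 to 0.966, and from 0.731 to 0.969 when each group was centred on its own mean. Nefl followed these 6 less closely (r of 0.556 to 0.836). Nefm followed Nefl (r = 0.618), while its r with the other 6 lay between -0.257 and 0.186. Rb-null 2 was the lowest Rb-null library for all 8 genes, and TET-MYCN 4 was the lowest TET-MYCN library for 5 of them. Rb-null 3 and 4 were between them the highest of all libraries for 7 of the 8.

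Rod markers had the same high and low Rb-null libraries as the tight group of genes. In TET-MYCN they shared the lowest library with most of that group but not the order of the others. Their part in these values was not tested. The 10 rod markers summed to 6735, 5080, 6261 and 2864 CPM in TET-MYCN 1 to 4, against 9082, 4051, 18390 and 14090 CPM in Rb-null 1 to 4. They were highest in Rb-null 3 and 4 and, within Rb-null, lowest in Rb-null 2. Within TET-MYCN the rod sum was lowest in TET-MYCN 4, as were Nefh, Thy1, Sncg, Rbpms and Slc17a6. It was highest in TET-MYCN 1, where Nefh, Sncg, Rbpms, Rbpms2 and Slc17a6 were the lowest or next to the lowest of the TET-MYCN libraries. The 12 progenitor and mitosis markers summed to 1616, 1909, 1744 and 2086 CPM in TET-MYCN 1 to 4, against 1767, 1946, 846 and 1222 CPM in Rb-null 1 to 4, lowest in Rb-null 3 and 4.

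How many of the 8 genes were lower at an unadjusted p under 0.05 depended on single libraries. Without Rb-null 2 the count was 7, where 8.99% of all genes were lower, and without the crystallin-rich pair Rb-null 2 and 3 it was also 7, where 4.29% were. Rb-null 2 was the lowest Rb-null library for all 8 genes, and both of these fits left it out. Leaving out that library widens the difference by that choice, so these 2 counts give no support. The count was 2 without TET-MYCN 1, without TET-MYCN 4, without Rb-null 3 and without Rb-null 4, where 5.93%, 4.74%, 3.89% and 4.79% of all genes were lower. It was 3 without TET-MYCN 2 (8.16%) and 4 without TET-MYCN 3 (10.9%) and without Rb-null 1 (6.74%). No adjusted p of the 8 genes passed in any of these fits.

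The medians of the other marker lists, on the log2 scale, were -1.24 for rods (-0.81 without Rb-null 3), -0.86 for cones (-0.38 without Rb-null 3), -1.06 for bipolar cells, 0.09 for amacrine cells, -0.57 for Müller glia and astrocytes, -0.27 for pericytes and smooth muscle, -0.42 for endothelium, -0.01 for microglia, -2.86 for the 8 lens markers tested and 0.52 for progenitors and mitosis. By edgeR 0 genes of these lists passed. At an unadjusted p under 0.05, 7 of 10 rod, 8 of 12 bipolar, 6 of 12 Müller glia and astrocyte and 6 of 8 lens markers were lower. At that p, 8 of 12 progenitor and mitosis markers were higher. Each of the other lists of this paragraph had 0 to 2 in either direction. Over all genes 7.72% were lower and 8.06% higher.

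Rbpms was used as a denominator to set each gene against the general ganglion cell marker of its own library, a comparison added after the data were seen. Thy1 had 5.07, 3.65, 4.38 and 4.80 counts per Rbpms count in TET-MYCN 1 to 4, against 3.36, 4.09, 4.65 and 5.66 in Rb-null 1 to 4. Slc17a6 had 1.44, 1.21, 1.27 and 1.40 per Rbpms count in TET-MYCN, against 1.28, 1.07, 1.61 and 1.42 in Rb-null. For both genes the groups overlapped fully, with differences in mean log2 ratio of 0.03 for Thy1 and -0.01 for Slc17a6.

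Nefh relative to Rbpms was 2.57, 2.61, 2.50 and 2.42 in TET-MYCN 1 to 4, against 3.05, 3.71, 3.41 and 3.42 in Rb-null 1 to 4. TET-MYCN 3, which lay with the Rb-null libraries for Nefh to Nefm, lay here with its own group. The SD of the log2 ratio in TET-MYCN was 0.0472. Rbpms had 199 to 389 counts in these libraries, so counting error is not small beside that SD. The difference in mean log2 ratio was -0.42, or 0.745-fold, with p = 0.0286, the smallest the design allows, and an adjusted p of 0.2 over the 7 ratios (exact permutation test). An adjusted p under 0.05 could not be reached for 1 such ratio alone. The difference was -0.47 to -0.38 with any 1 library left out.

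Nefm relative to Rbpms was 15.4, 6.47, 3.39 and 9.20 in TET-MYCN 1 to 4, against 4.11, 4.22, 4.60 and 4.83 in Rb-null 1 to 4. It was above the Rb-null range in 3 TET-MYCN libraries and below it in TET-MYCN 3, a difference of 0.75 on the log2 scale (p = 0.171, adjusted p = 0.3, exact permutation test). The difference was 0.40 without TET-MYCN 1 and 1.13 without TET-MYCN 3. Nefl, Sncg and Rbpms2 differed by 0.10, -0.20 and -0.15 relative to Rbpms, with overlapping groups and adjusted p of 0.943, 0.3 and 0.3 (exact permutation test).

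**Figure D5:**
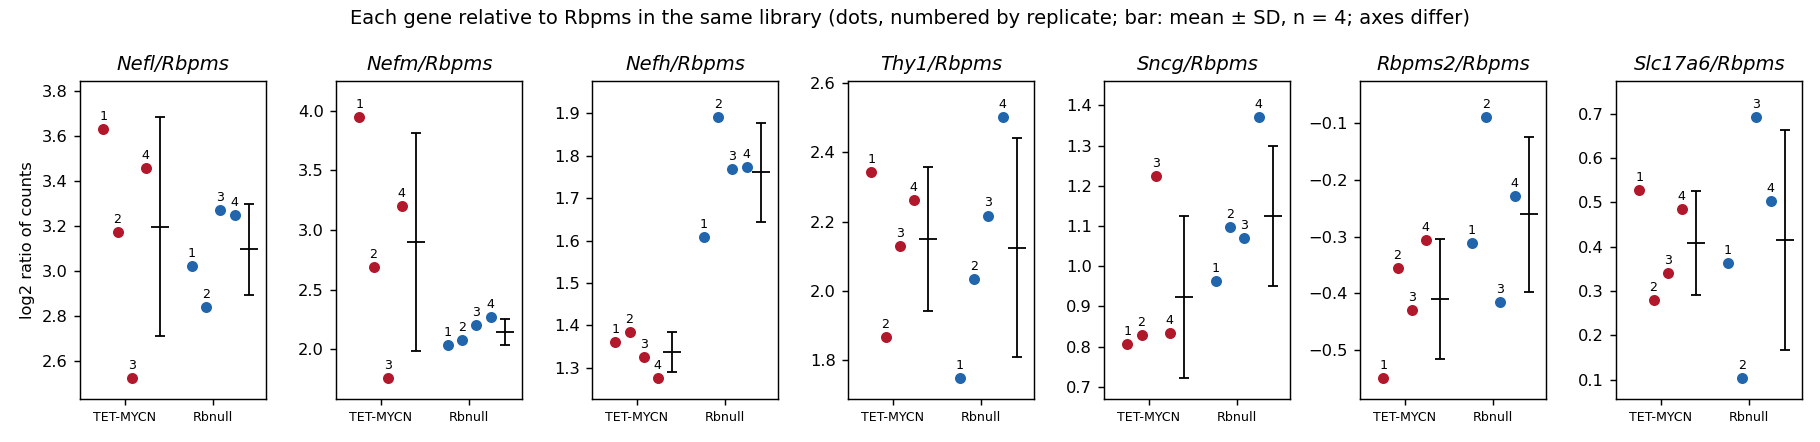
Log2 ratio of each gene's counts to the Rbpms counts of the same library (vertical scales differ), TET-MYCN left and Rb-null right, numbered by replicate, with mean and SD (n = 4 each). For Nefh the groups are apart, at 1.28 to 1.39 in TET-MYCN and 1.61 to 1.89 in Rb-null, and for the other 6 genes they overlap.

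Levels per kilobase of the longest coding transcript put 4 genes above the other 4. In TET-MYCN, Nefl had a mean of 39.0 ± 7.51 CPM per kilobase, Thy1 of 36.6 ± 5.10, Sncg of 32.9 ± 10.9 and Nefm of 31.3 ± 14.8, and these 4 could not be ordered, since Nefm was first in TET-MYCN 1 and Sncg in TET-MYCN 3. Nefh followed at 9.15 ± 2.08, Rbpms at 5.67 ± 1.20, Rbpms2 at 5.48 ± 1.23 and Slc17a6 at 4.59 ± 0.650. In Rb-null, Thy1, Nefl and Sncg had 51.9 ± 21.0, 51.8 ± 18.6 and 51.5 ± 16.2 CPM per kilobase and could not be ordered. Nefm had 24.2 ± 7.30, Nefh 16.8 ± 3.95, Rbpms2 8.24 ± 1.601, Rbpms 7.79 ± 1.93 and Slc17a6 6.66 ± 2.56. Nefm stood above Nefh and Nefh above Rbpms2 in all 8 libraries. Rbpms2 stood above Rbpms in 5 of 8, so that pair had no order, and Nefm and Sncg changed places in 2 TET-MYCN libraries. Nefl, Thy1 and Sncg lay at the 88.5th, 88.0th and 87.4th percentile of all genes with a length, and Slc17a6 at the 34.1st.

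Paralogs placed the members in their families. Slc17a7, the VGLUT1 transporter of photoreceptors and bipolar cells, had 366, 284, 363 and 192 CPM in TET-MYCN 1 to 4, against 496, 279, 1080 and 778 CPM in Rb-null 1 to 4, a log2 fold change of -1.13 ± 0.37 (edgeR adjusted p = 0.216). The ratio of Slc17a6 to Slc17a7 counts was 0.0485, 0.0720, 0.0602 and 0.0828 in TET-MYCN 1 to 4, against 0.0504, 0.0502, 0.0357 and 0.0419 in Rb-null 1 to 4. TET-MYCN 1 lay among the Rb-null libraries and the other 3 lay above them, a difference of 0.55 on the log2 scale (p = 0.0857, exact permutation test). Without TET-MYCN 1 the difference was 0.69, but leaving out the library that overlapped separates the groups by that choice, so no p is given. In the list of 7 paralogs and sister genes, 0 passed by edgeR and 1, Slc17a7, by DESeq2, which called 3.51% of all genes. At an unadjusted p under 0.05, 1 was higher and 1 lower, where 8.06% and 7.72% of all genes were. The median of the list was -0.27. The intermediate filament genes Nes, of progenitors, and Gfap, of glia, had log2 fold changes of 0.47 ± 0.20 and 0.75 ± 0.38 (edgeR adjusted p = 0.302 and 0.364).

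Of the transcription factors of ganglion cells, 7 of 15 had a positive and 8 a negative log2 fold change, and their median was -0.05. By edgeR 0 passed. At an unadjusted p under 0.05, 2 were higher and 3 lower, where 8.06% and 7.72% of all genes were. DESeq2 called 1, Atoh7, where it called 3.51% of all genes. Atoh7, the factor that makes progenitors competent for the ganglion cell fate, had 3.09, 3.85, 3.37 and 14.8 CPM in TET-MYCN 1 to 4, against 1.02, 1.34, 0.917 and 0.538 CPM in Rb-null 1 to 4. Every TET-MYCN library lay above every Rb-null library, with a log2 fold change of 2.70 ± 0.57 (edgeR adjusted p = 0.151, DESeq2 adjusted p = 1.95e-04). Without TET-MYCN 4, which was far above the others, the log2 fold change of Atoh7 was 1.84 ± 0.29 (edgeR adjusted p = 0.219). Pou4f3, a POU factor of differentiated ganglion cells, was at 0.706 ± 0.112 CPM in TET-MYCN and 1.59 ± 0.656 CPM in Rb-null, with log2 fold change -1.15 ± 0.35. Irx3 was at 4.00 ± 1.38 CPM in TET-MYCN and 7.36 ± 2.07 CPM in Rb-null, with log2 fold change -0.88 ± 0.28. Adjusted p were 0.194 and 0.212 (edgeR). Outside the naming rule, Pou4f1 and Pou4f2, which bind the ATTAAT core, had log2 fold changes of -0.81 ± 0.31 and -0.24 ± 0.27, and Sox11, an early neuronal factor, 1.02 ± 0.35 (adjusted p = 0.256, 0.717 and 0.231, edgeR).

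Among 17 tested genes of ganglion cell subtypes and secreted markers, 14 were negative and the median was -0.34 on the log2 scale. By edgeR 0 passed. At an unadjusted p under 0.05, 6 were lower and 1 higher, where 7.72% and 8.06% of all genes were. DESeq2 called 2, Foxp2 and Kcng4, where it called 3.51% of all genes. Foxp2, a transcription factor of one family of small direction-selective ganglion cells, had 12.0, 8.96, 3.88 and 9.52 CPM in TET-MYCN 1 to 4, against 3.21, 3.16, 2.62 and 2.69 CPM in Rb-null 1 to 4. The groups did not overlap, with a log2 fold change of 1.55 ± 0.31 (edgeR adjusted p = 0.132). The log2 fold change of Foxp2 was 1.34 to 1.79 with any 1 library left out. It was highest without TET-MYCN 3, the lowest library of its group, in a fit that called 230 genes (edgeR adjusted p = 0.00459). The edgeR adjusted p of Foxp2 was 0.366 without TET-MYCN 1 and 0.36 without TET-MYCN 4. Kcng4, a potassium channel subunit of alpha ganglion cells, had 7.11, 4.33, 6.69 and 2.82 CPM in TET-MYCN 1 to 4, against 10.1, 6.80, 25.8 and 29.3 CPM in Rb-null 1 to 4, a log2 fold change of -1.78 ± 0.48 (edgeR adjusted p = 0.164). Chrna6, a nicotinic receptor subunit of ganglion cells, was at 19.1 ± 4.49 CPM in TET-MYCN and 33.4 ± 11.1 CPM in Rb-null (-0.80 ± 0.26, edgeR adjusted p = 0.207).

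Genes of the axonal cytoskeleton and transport went both ways, 8 positive and 13 negative of 21, with a median log2 fold change of -0.05. By edgeR 0 passed. At an unadjusted p under 0.05, 2 were higher and 3 lower, where 8.06% and 7.72% of all genes were. DESeq2 called 2, Stmn4 and Dnm1, where it called 3.51% of all genes. Stmn4, a stathmin that binds tubulin, was at 64.9 ± 11.7 CPM in TET-MYCN and 40.9 ± 5.19 CPM in Rb-null, with a log2 fold change of 0.67 ± 0.15 and groups that did not overlap (edgeR adjusted p = 0.155). Gap43, the growth cone protein, was at 119 ± 27.6 CPM in TET-MYCN and 82.3 ± 5.44 CPM in Rb-null, also without overlap (0.53 ± 0.15, edgeR adjusted p = 0.184). Dnm1, the dynamin of synaptic vesicle recycling, was at 236 ± 38.3 CPM in TET-MYCN and 369 ± 94.0 CPM in Rb-null (-0.65 ± 0.19, edgeR adjusted p = 0.184). The groups of Dnm1 also did not overlap, by a narrow margin, at 275.2 CPM in TET-MYCN 2 and 277 CPM in Rb-null 2. Ina, which codes for alpha-internexin, a partner of the neurofilament subunits in central axons, is named outside the rule. It had 138, 112, 71.4 and 139 CPM in TET-MYCN 1 to 4, against 97.5, 106, 109 and 99.9 CPM in Rb-null 1 to 4. Within TET-MYCN, Ina and Nefm were both lowest in TET-MYCN 3, and the groups differed little in Ina (0.16 ± 0.19).

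Genes of nodes, spikes and axonal channels were negative in 13 of 17, and their median was -0.24 on the log2 scale, which was -0.09 without TET-MYCN 3. By edgeR 0 passed. At an unadjusted p under 0.05, 0 were higher and 7 lower, where 8.06% and 7.72% of all genes were. DESeq2 called 1, where it called 3.51% of all genes. Scn4b, a sodium channel subunit gene, had a log2 fold change of -1.58 ± 0.53 (edgeR adjusted p = 0.218) and was near the limit of detection, at 0.366 ± 0.246 CPM in TET-MYCN and 1.14 ± 0.571 CPM in Rb-null, where 3 counts are 0.130 to 0.202 CPM.

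By Pearson's r over the 8 libraries, among 12331 other genes with a mean of at least 5 CPM, the mean z-score of Nefl, Nefm and Nefh was most closely followed by Stk40 (r = 0.992), Frmpd1 (0.990), Sh3bgrl2 (0.987), Esrrb (0.984) and Tnfaip3 (0.977). Their log2 fold changes lay between -1.02 and -0.11. Nefm and Nefh had an r of -0.172 with each other, so this mean is not a pattern that each subunit had. The mean z-score of the 5 identity genes was most closely followed by Rragb (r = 0.994), Gsg1 (0.994), Cend1 (0.984), Sec22b (0.982) and Mapkapk5 (0.981). Their log2 fold changes lay between -1.49 and -0.09. These values describe likeness over 8 libraries that share depth and tissue makeup, and the best of 12331 genes is high by selection.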

How the data were processed

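Poly(A) RNA libraries were made with a NEBNext Ultra kit, per the labels' protocols. What the authors deposited is unnormalized: whole-number counts of reads by gene symbol, 1 table a library. The submitters' processing notes name HTSeq 0.5.4p3, TopHat2 2.0.8b, CASAVA 1.8.2 and the build mm9. Not given in the sources used here are options, annotation and strand use. Without strand, reads of overlapping genes cannot be told apart: a longer Nefm model of GRCm38 spans Nefl on the other strand, and Rbpms has an antisense partner. The 5 HTSeq summary rows, 28.3% to 31.7% of reads, stayed out of library sizes and tests.

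Counts were scaled by TMM, and filterByExpr kept 15106 genes. Groups were compared by quasi-likelihood in edgeR 4.0.16 (R 4.3.3, robust, group as the only term), with Benjamini-Hochberg adjustment over all genes tested at 0.05. Positive log2 fold changes mean higher in TET-MYCN. SE is the absolute log2 fold change over the square root of F. Log2 CPM used a prior count of 2. Ratios were tested by two-sided exact permutation over 70 arrangements. Lengths came from GENCODE M21 (GRCm38), used for lengths only. DESeq2 1.42.0 and limma 3.58.1 (voom) were alternatives. The procedure was also run on simulated counts, in which all genes had the same relative spread beyond counting error. That run does not show its error rates on these data.

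The genes and the 16 other lists were chosen with earlier results of these data known. The rule named the 8 genes, the 3 smallest unadjusted p per list and the 5 closest genes per pattern. Some genes that the rule named are not reported here. Lists of other cell types, apart from horizontal cells, are given as sums, medians or counts, with no gene named. Of the list symbols, 4 were matched by older names. Plots used matplotlib 3.10.9 under Python 3.11.15.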

Additional observations from a re-analysis of the deposited data

Results flagged for a closer look

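A library lay far from the others of its group in 2 of the 38 sets of 4 values examined, where chance alone gives about 1 in 20. For the log2 ratio of Sncg to Rbpms in TET-MYCN, TET-MYCN 3 stood at 1.23 and the other 3 at 0.81 to 0.83, with a gap of 0.935 of the group's range, above Dixon's 95% critical value. For the log2 ratio of Nefh to Nefl in Rb-null, Rb-null 2 stood at -0.95 and the other 3 at -1.50 to -1.41, with a gap of 0.840 of the range. TET-MYCN 3 also had the largest share of multiply aligned reads, 12.8%, and its part in these values was not tested.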

How the results depend on the processing

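The direction of all 8 ganglion cell genes was the same under every alternative run, and Nefh alone gained a call, with DESeq2 (log2 fold change -0.88, 1 of 8 called). Over all genes, edgeR called 9, which became 17 with no filter on low counts, 530 with DESeq2, 0 with limma-voom, 3 with the replicate number as a block, 0 without the crystallin-rich pair Rb-null 2 and 3, and 0 to 230 with 1 library left out (132 without TET-MYCN 2, 230 without TET-MYCN 3, 1 without Rb-null 1 and 0 otherwise). At an unadjusted p under 0.05, limma-voom had 2262 genes and the fit without that pair 1306. Same-numbered libraries did not pair: r of their deviations was -0.295 to -0.040, none correlated best with its own number, and the block left Nefh at -0.87 (adjusted p = 0.344). The sign-flip form of the block allows no p under 0.125 for the ratios. With 1 library left out, differences in log2 ratio were -0.74 to -0.39 (Nefh/Nefl), -1.55 to -0.84 (Nefh/Nefm), 0.45 to 0.81 (Nefm/Nefl), 0.43 to 0.69 (Slc17a6/Slc17a7), 0.40 to 1.13 (Nefm/Rbpms), -0.30 to -0.12 (Sncg/Rbpms), -0.20 to -0.09 (Rbpms2/Rbpms), and, changing sign around 0, -0.043 to 0.32 (Nefl/Rbpms), -0.10 to 0.15 (Thy1/Rbpms) and -0.11 to 0.085 (Slc17a6/Rbpms). List medians moved by over 1.5 times with 1 library left out for paralogs (-0.44 to -0.15), channels (-0.34 to -0.09), rods (-1.54 to -0.81), cones (-1.11 to -0.38), horizontal cells (0.55 to 1.34) and, near 0, axonal cytoskeleton (-0.11 to -0.01), ganglion cell transcription factors (-0.08 to 0.0004), amacrine cells (-0.04 to 0.24) and microglia (-0.20 to 0.13). The median for Müller glia and astrocytes moved by less than 1.5 times with 1 library left out (-0.77 to -0.38). For lens markers the median was -1.19 without the crystallin-rich pair. The cause of these moves was not tested.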
